A study of Arabidopsis thaliana with 12 samples.

Results

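Roots of the nitrate transporter mutant chl1-5 were compared at 2 times, T0, before the nitrate was given, and T0.5, when 25 mM KNO3 had been present for 30 min. Membership followed from the sample titles: 6 of the 12 arrays of the study are chl1-5 arrays, 3 at each time, and the other 6 are wild type (Columbia) at the same times. The roots came from 10-day-old Arabidopsis plants, both genotypes growing in separate areas of one mesh (about 100 seeds a mesh), with 0.5% sucrose and with 12.5 mM ammonium succinate as the only source of nitrogen. The plants stood for 3 h in medium with that nitrogen source at pH 5.5 and were washed, and roots were taken at once or after the stay in nitrate, which replaced the ammonium salt. Each replicate pooled 9 vessels, some 900 seedlings, and the labels call it an independent experiment, so that number is written here as experiment 1, 2 or 3. The mutant is 1 line, and what the T0 to T0.5 step holds besides nitrate (loss of ammonium succinate, a transfer) applies to both genotypes. A transfer to KCl in place of KNO3 was not analysed here, so these changes and nitrate cannot be told apart.

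CHL1, also called NRT1.1 or NPF6.3, carries nitrate across the plasma membrane of root cells and also takes part in sensing it. Within minutes of nitrate supply, Arabidopsis roots change the transcripts of genes for nitrate uptake and reduction, for the supply of reductant and carbon skeletons, and for regulators of the response. chl1-5 is a deletion allele of CHL1, so what its roots still induce and repress is what happens without this protein. The CHL1 transcript itself was not analysed here, because no probe set was named for it.

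A signal is the fluorescence summary of 1 probe set on the authors' linear scale. A change is given as log2 of T0.5 over T0, signals under 32 having first been raised to 32, with its standard error (SE) from the paired fit. A probe set was tested if on at least 3 arrays its signal reached the array's 40th percentile, and a probe set is called at an adjusted p under 0.05. It is dim where it lay under that percentile on all 3 arrays of a group. On the chl1-5 arrays the median signal lay between 180.8 and 195.4, and the 3'/5' ratio of the GAPDH controls between 0.971 and 1.24. The actin 3'/5' ratio lay between 9.72 and 18.4, its highest value being that of the T0 array of experiment 3. Of 6 shoot markers listed, 1 had a named probe set, and of 9 root markers 2 had one. The shoot gene RCA (rubisco activase) read 539 to 658 on all 6 chl1-5 arrays, with a log2 change of 0.02 (adjusted p = 0.916). The root-hair expansin EXPA7 read at least 630 on each, and the change of the other root marker, EXPA18, is given with the expansins. How free the roots were of shoot tissue was not tested.

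The mutant roots changed many transcripts within 30 min. Of 14291 probe sets tested, 1434 were called (10.0%) in the fit over both genotypes, and 623 when the chl1-5 arrays were fitted alone. The 1434 were 756 higher (5.29%) and 678 lower (4.74%). The rises were the larger changes: 308 of them were at least 2-fold (2.16% of those tested), 66 at least 4-fold (0.462%) and 21 at least 8-fold (0.147%), while 59 falls reached 2-fold (0.413%) and 4 reached 4-fold (0.0280%). The median log2 change was 0.90 over the rises and −0.56 over the falls, beside −0.06 over all tested. The 3 arrays of one time lay wholly above those of the other for 2828 probe sets (19.8%), and 1194 of these were called (8.35%). Of the rises 80 started dim at T0, and 16 of the falls ended dim at T0.5. A fit without the experiment as a block called 561 (3.93%), all among the 1434. The count of 1434 also fell without experiment 2 (418) or 3 (600), or without 1 of their chl1-5 arrays (743 without T0 of experiment 2, 772 without T0 of 3, 765 without T0.5 of 2, 769 without T0.5 of 3). Without experiment 1 it rose to 1761. Of the 105 genes and probe sets that the following paragraphs name as called in chl1-5, 44 were called in every alternative run, 40 were not called without the block and 57 were not called in at least 1 fit that left out an experiment.

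**Figure D1:**
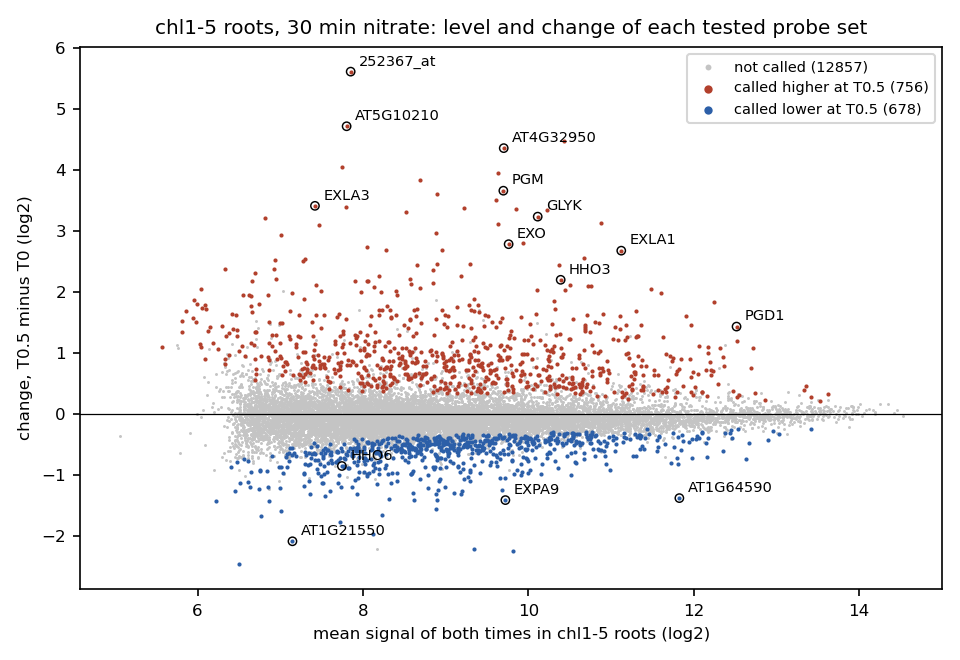
Each point is 1 of the 14291 tested probe sets, with the mean log2 signal over both times in chl1-5 roots on the x axis and the log2 change from T0 to T0.5 on the y axis. Rises (756) reach higher on the y axis than falls (678) reach below 0, and both occur across the range of signals.

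The regulators of the nitrate response on the arrays moved in both directions. A list of 30 such genes had 6 with a named probe set. The list was chosen with earlier results of these data known, so its counts are a description. All 6 were called, beside 10.0% among all probe sets, 4 higher and 2 lower (median 1.02). Of these, 5 belong to the HHO family, GARP-type transcription factors related to HRS1, whose best known members act as repressors in nitrate and phosphate signalling. HHO3 read 752, 551 and 538 at T0 in experiments 1, 2 and 3 and 1826, 3102 and 3883 at T0.5. Its groups were far apart, and the log2 change was 2.21 (SE 0.24, adjusted p = 0.000103). HHO2 read 345, 439 and 346 at T0 and 897, 1400 and 1372 at T0.5, a log2 change of 1.68 (SE 0.14, adjusted p = 1.42e-05). HHO1 was dim at T0, with signals of 4.3, 30.1 and 9.7, and read 78.4, 125 and 112 at T0.5. Its log2 change of 1.69 (SE 0.23, adjusted p = 0.000603) was thus measured against the floor of 32, and with a floor of 100 it was not called.

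HHO6 went the other way: it read 264, 274 and 319 at T0 and 201, 134 and 148 at T0.5, so that all T0 arrays were above all T0.5 arrays (log2 −0.85, SE 0.15, adjusted p = 0.00366). HHO5 read 806, 587 and 709 at T0 and 613, 422 and 402 at T0.5. Its groups overlapped, but the fall recurred in each experiment (log2 −0.56, SE 0.12, adjusted p = 0.00951). NRG2, a regulator of nitrate signalling that acts with NLP7, made the smallest of these changes, from 568, 614 and 631 to 770, 732 and 846 (log2 0.37, SE 0.11, adjusted p = 0.0494). Without the block, HHO5 (adjusted p = 0.142) and NRG2 (0.114) were not called. Without experiment 2 or without experiment 3, 3 of the 6 were called.

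Enzymes of carbon metabolism were among the strongest rises. PGM, a phosphoglycerate mutase of the glycolytic pathway, read 222, 286 and 195 at T0 and 2834, 2879 and 3115 at T0.5. The 3 experiments ended at nearly the same signal, a 12.7-fold rise (log2 3.67, SE 0.13, adjusted p = 8.04e-09). GLYK, glycerate kinase (AT1G80380), which returns glycerate to 3-phosphoglycerate, read 255, 388 and 438 at T0 and 2409, 3767 and 4043 at T0.5. Its change was 9.47-fold (log2 3.24, SE 0.12, adjusted p = 9.09e-09). The cytosolic isocitrate dehydrogenase cICDH, a source of 2-oxoglutarate, was bright at both times, 10148 to 12794 at T0 and 10380 to 13572 at T0.5, with a log2 change of 0.04 (95% interval −0.09 to 0.16, adjusted p = 0.771). PPDK, the fourth listed enzyme with a named probe set (of 12 listed), stayed below the filter on low signals. Of the 3 tested, 2 were thus called higher, beside 5.29% among all probe sets.

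The oxidative pentose phosphate pathway supplies NADPH in root plastids, where nitrite is reduced. Of 11 genes listed for reductant supply, 3 had a named probe set, all of them 6-phosphogluconate dehydrogenases. PGD1 read 3241, 3714 and 3700 at T0 and 8178, 10371 and 10502 at T0.5, a 2.71-fold rise (log2 1.44, SE 0.07, adjusted p = 1.01e-07). PGD3 read 1261, 1452 and 1311 at T0 and 3860, 4508 and 2553 at T0.5 (log2 1.40, SE 0.12, adjusted p = 2.02e-05). For PGD2 the arrays of both times overlapped, 5594 to 6617 at T0 and 5208 to 6566 at T0.5, with a log2 change of −0.02 (95% interval −0.15 to 0.12, adjusted p = 0.909). Of these 3 genes, 2 were thus called higher, beside 5.29% among all probe sets, and the third had a narrow interval around 0.

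Nitrogen and sulfur assimilation gave fewer named genes. Of 17 genes listed for nitrate assimilation and siroheme synthesis only SIRB, which makes the siroheme cofactor of nitrite and sulfite reductase, had a named probe set. It read 559, 499 and 542 at T0 and 469, 458 and 492 at T0.5 (log2 −0.17, adjusted p = 0.274). Among genes picked after their values were seen, GAT1_2.1, a glutamine amidotransferase, read 475, 437 and 1011 at T0 and 940, 3120 and 5846 at T0.5. The arrays overlapped because experiment 3 was high at both times, and the log2 change was 2.12 (SE 0.38, adjusted p = 0.00366, 0.157 without the block). The asparaginase ASPGB1, which frees ammonium from asparagine, rose from 157, 187 and 147 to 356, 515 and 697 (log2 1.63, SE 0.25, adjusted p = 0.0012), a call that did not hold without experiment 2.

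In the sulfate list 3 of 12 genes had a named probe set, and 1 of these was called, beside 10.0% among all probe sets. APS3, an ATP sulfurylase, read 517, 596 and 522 at T0 and 610, 1372 and 1475 at T0.5, so that the rise (log2 0.98, SE 0.23, adjusted p = 0.0175) was carried by experiments 2 and 3. It was not called without the block (adjusted p = 0.184), nor without either of those experiments, nor without any 1 of their 4 arrays. The sulfite reductase SIR had a log2 change of 0.26 (adjusted p = 0.064) and was called after median scaling. APS4, an ATP sulfurylase like APS3, had a log2 change of −0.01 (adjusted p = 0.928). Also picked after their values were seen, MDH, a malate dehydrogenase, rose from 2191, 2184 and 1953 to 2959, 3119 and 2403 (log2 0.42, adjusted p = 0.00924), and the glycolytic GAPC2 had a log2 change of 0.23 (adjusted p = 0.0382). PDC2, a pyruvate decarboxylase, fell (log2 −0.32, adjusted p = 0.031). None of these 3 was called without the block.

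Transport genes were sparsely measured, and their counts stand beside the 10.0% called among all probe sets. Both measured members of the nitrate transport list (2 of 11) had lower signals at T0.5 and neither was called. NRT2.5, a high-affinity nitrate transporter of nitrogen-starved plants, read 366, 313 and 223 at T0 and 161, 167 and 169 at T0.5, with no overlap (log2 −0.83, SE 0.24, adjusted p = 0.0504). It was called in each of 4 fits that left out 1 wild-type array of experiment 1 or 2. NPF3.1, a nitrite and gibberellin transporter, had a log2 change of −0.62 (adjusted p = 0.0863). None of the 5 listed ammonium transporters had a named probe set. Of 8 members of the NRT1/PTR family tested, 2 were called, both higher. AT1G59740 (NPF4.3) read 156, 126 and 172 at T0 and 268, 301 and 480 at T0.5 (log2 1.17, adjusted p = 0.000886). GTR1, a glucosinolate transporter, read 530, 563 and 380 at T0 and 732, 1592 and 1030 at T0.5 (log2 1.14, adjusted p = 0.00254), a call lost without experiment 2 or 3, while its relative GTR2 had a log2 change of −0.13 (adjusted p = 0.374). Of 7 SWEET sugar transporters only SWEET16, a vacuolar membrane protein, was called. It read 950.0, 1002 and 1447 at T0 and 1777, 2499 and 2827 at T0.5 (log2 1.06, SE 0.11, adjusted p = 7.9e-05).

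Genes of the cell wall moved in both directions. Expansins loosen the wall of growing cells, and 12 were tested. Beside 5.29% called higher and 4.74% lower among all probe sets, 3 were called higher, 5 lower, and 4 were not called (median −0.32). All 3 rises were expansin-like A genes. EXLA1 read 1060 (experiment 1), 643 and 956 at T0 and 4716, 6033 and 6096 at T0.5, a 6.43-fold rise (log2 2.69, SE 0.18, adjusted p = 1.87e-06). EXLA3, its neighbour on chromosome 3, was dim at T0 with 74.0, 3.2 and 59.3 and read 241, 851 and 839 at T0.5 (log2 3.42, SE 0.49, adjusted p = 0.000855). EXLA2, likewise dim at T0 with 33.6, 61.9 and 37.1, read 68.8, 319 and 209 at T0.5 (log2 1.96, SE 0.32, adjusted p = 0.00202), and was not called with a floor of 100 or without experiment 2 or 3.

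The falls were alpha-expansins and 1 beta-expansin. EXPA9 read 1329, 1482 and 1311 at T0 and 507, 489 and 561 at T0.5, a 2.65-fold fall with hardly any spread (log2 −1.40, SE 0.10, adjusted p = 4.53e-06). EXPA15 read 1072, 1938 and 1304 at T0 and 636, 777 and 819 at T0.5 (log2 −0.91, adjusted p = 0.00134). EXPA7, an expansin of root hair cells, read 1410, 1283 and 1192 at T0 and 988, 754 and 630 at T0.5 (log2 −0.73, adjusted p = 0.0024). The other root-hair expansin, EXPA18, had no overlap either but missed the threshold (log2 −0.39, adjusted p = 0.0709). EXPB1 (log2 −0.83, adjusted p = 0.0128) and EXPA4 (log2 −0.31, adjusted p = 0.0383) were lower, EXPA4 without a call when the block was dropped (0.421). EXLB1, EXPA20 and EXPB3 had log2 changes of −0.07, −0.06 and −0.33 and were not called. Without experiment 2 the calls came to 2 higher and 1 lower, and without experiment 3 to 2 higher and 3 lower.

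Among other wall genes, some were called higher and XTH32 lower. Family counts here stand beside 5.29% called higher and 4.74% lower among all probe sets. EXO, a protein of the apoplast known for brassinosteroid-dependent growth, read 266, 309 and 396 at T0 and 1583, 2028 and 3370 at T0.5 (log2 2.79, SE 0.20, adjusted p = 3.76e-06). Of 7 cellulose synthase-like genes tested, 3 were called, all higher, and 4 were not (median −0.15). CSLC04, a synthase of the xyloglucan backbone, read 610, 642 and 530 at T0 and 997, 2399 and 2668 at T0.5 (log2 1.65, adjusted p = 0.000885). CSLA03, of the glucomannan synthase subfamily, read 318, 321 and 190.4 at T0 and 626, 814 and 986 at T0.5 (log2 1.56, adjusted p = 0.000977). The change of CSLD2, a gene of root hair growth, was small (log2 0.34, adjusted p = 0.0498, 0.259 without the block). Of 8 xyloglucan-modifying XTH genes 2 were called higher, 1 lower and 5 not (median 0.31). XTH18 read 1804, 1724 and 1883 at T0 and 2325, 3938 and 4628 at T0.5 (log2 0.95, adjusted p = 0.00324). The calls of XTH18 (0.139) and CSLC04 (0.068) did not hold without experiment 2. XTH21 (log2 0.52, adjusted p = 0.0466) and XTH32 (log2 −0.49, adjusted p = 0.0153) were called, but not without the block (0.248 and 0.398).

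**Figure D2:**
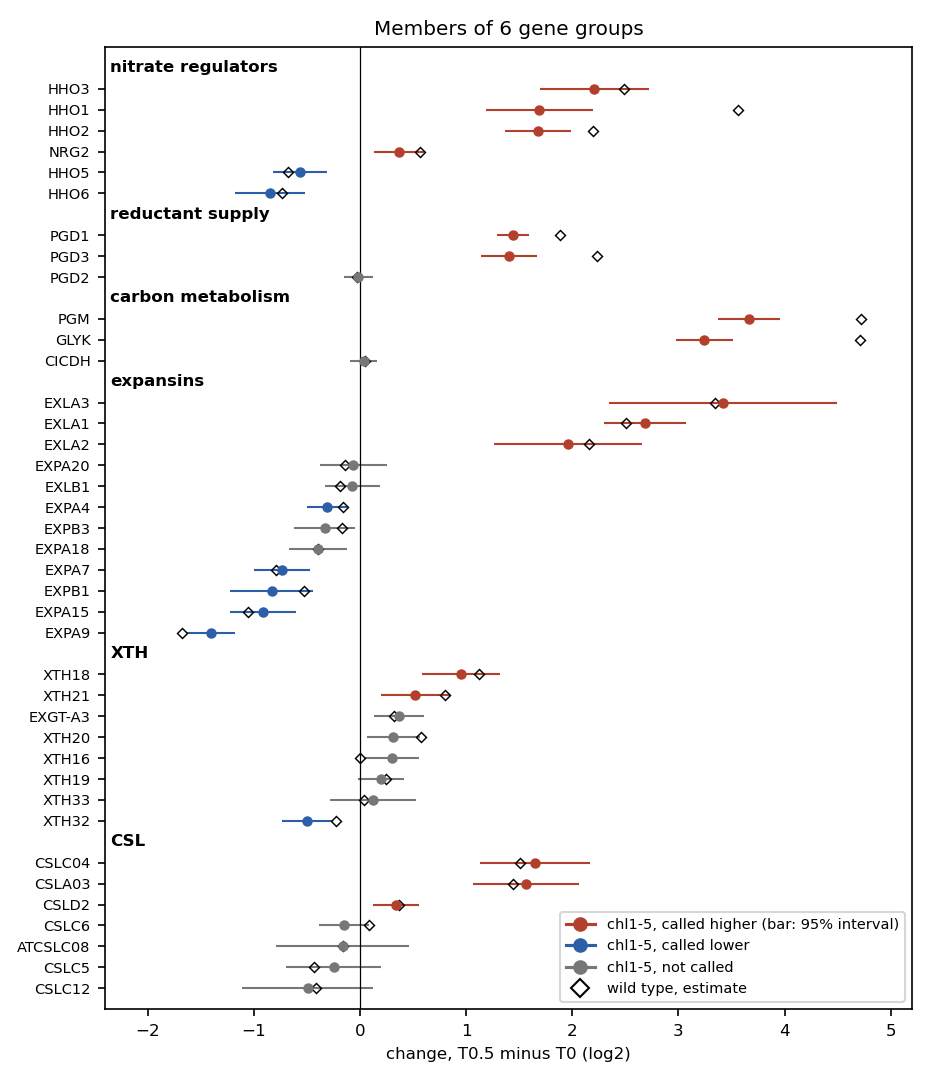
The log2 change from T0 to T0.5 (x axis) is drawn for every tested member of 6 gene groups, as a filled point with its 95% interval for chl1-5 and an open diamond for the wild-type estimate. The 3 EXLA genes lie right of 0 and the points of the other 9 expansins left of it, 5 of which were called lower, and PGM, GLYK, PGD1, PGD3 and HHO1 have wild-type diamonds right of the chl1-5 interval.

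Few genes of hormone response were measured. Of 12 genes listed for cytokinin and auxin response, 5 had a named probe set. Of these, 3 (ARR15, ARR16 and GH3.3) stayed below the filter, and the 2 tested were called lower, beside 4.74% among all probe sets. UGT76C2, which glucosylates cytokinins, read 707, 719 and 567 at T0 and 448, 451 and 342 at T0.5 (log2 −0.69, SE 0.11, adjusted p = 0.00176). GH3.5, an enzyme that joins auxin to amino acids, read 563, 640.5 and 602 at T0 and 459, 408 and 461 at T0.5 (log2 −0.44, SE 0.11, adjusted p = 0.0253), a call that ended without experiment 2 or 3 or any 1 of their 4 arrays. Among genes picked afterwards, GH3.17, of the same enzyme family, read 3465, 3607 and 6570.4 at T0 and 2524, 2022 and 3030 at T0.5 (log2 −0.80, SE 0.12, adjusted p = 0.00112), a fall within each experiment that was not called without the block (0.129). The gibberellin receptor GID1B read 1507, 1454 and 1547 at T0 and 989, 1021 and 865 at T0.5 (log2 −0.65, SE 0.09, adjusted p = 0.000718). Its homologue GID1C was lower too (log2 −0.64, adjusted p = 0.0201, 0.0576 without the block). In the other direction, BAT1, an acyltransferase that inactivates brassinosteroids, read 893, 944 and 674 at T0 and 3509, 3517 and 3659 at T0.5 (log2 2.104, SE 0.12, adjusted p = 5.21e-07).

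**Figure D3:**
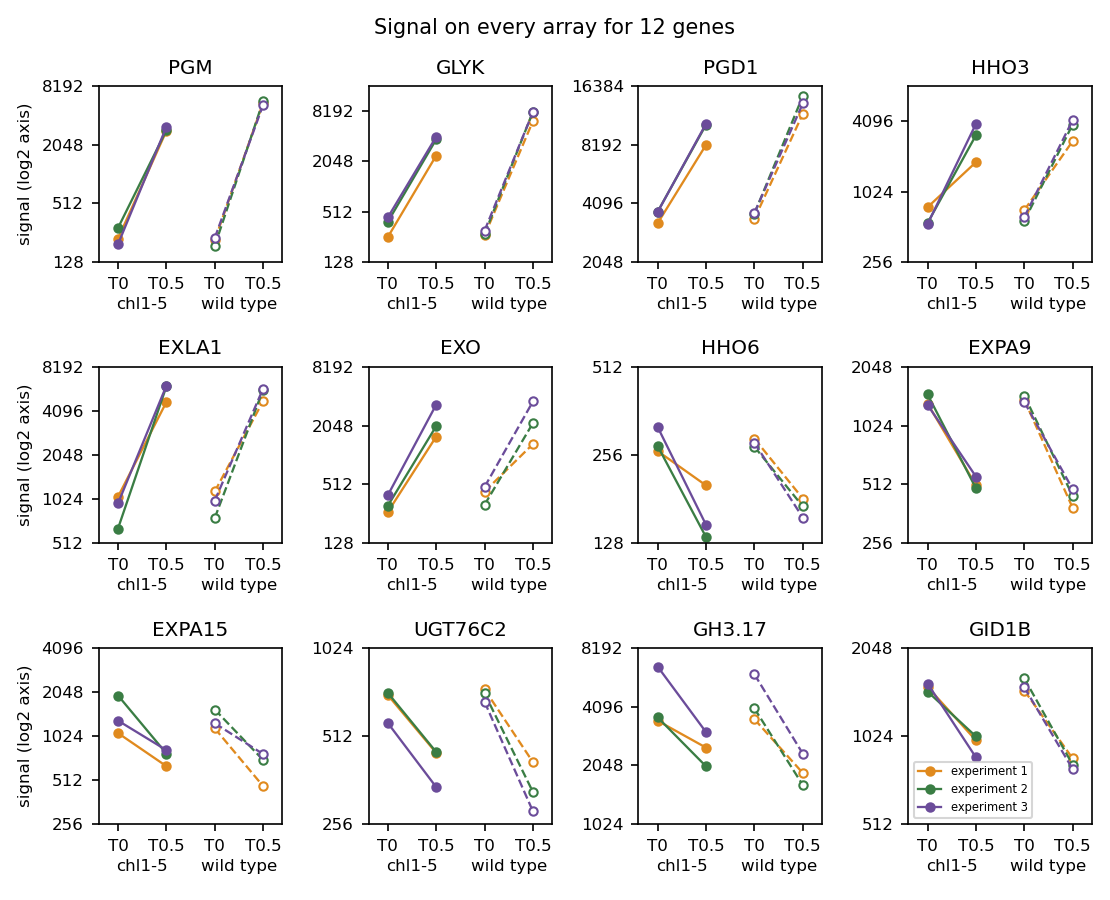
Signals on every array (log2 axis) are shown for 12 genes, with lines joining T0 and T0.5 of 1 experiment, solid for chl1-5 and dashed for wild type. In chl1-5 the PGM, GLYK, PGD1, HHO3, EXLA1 and EXO lines rise and the HHO6, EXPA9, EXPA15, UGT76C2, GH3.17 and GID1B lines fall in all 3 experiments.

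Signalling genes rose and fell. Family counts here stand beside 10.0% called among all probe sets. WNK7, a WNK-type protein kinase, read 160, 168 and 168 at T0 and 508, 1350 and 1080 at T0.5 (log2 2.45, SE 0.22, adjusted p = 2.37e-05). WRKY22, a transcription factor known from immune signalling, read 200, 84.2 and 100.4 at T0 and 673, 413 and 568 at T0.5 (log2 2.18, SE 0.16, adjusted p = 5e-06). WRKY47 was the only other of 6 WRKY genes called, lower by a small margin (log2 −0.49, adjusted p = 0.0472), and it was not called in any fit that left out 1 chl1-5 array. Of 11 bZIP factors 1 was called: BZIP53 read 2358, 1894 and 2610 at T0 and 3265, 5043 and 5531 at T0.5 (log2 0.99, SE 0.20, adjusted p = 0.00733), a call lost without experiment 2 or 3, or without the T0 or the T0.5 array of experiment 2. Neither of 2 MYB factors was called (log2 −0.12 and 0.27). The bZIP factor HYH, a homologue of the light-signalling factor HY5 that its symbol kept out of that count, was picked afterwards and read 191, 257 and 254 at T0 and 369, 523 and 401 at T0.5 (log2 0.88, adjusted p = 0.000855). HYH just missed the threshold without experiment 2 (0.0506).

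Several cell-surface receptors and peptides, picked after their values were seen, were called. THE1 and FER, receptor kinases that monitor the cell wall, had log2 rises of 1.03 (adjusted p = 0.000341) and 0.64 (adjusted p = 0.000315). FER read 2145, 2302 and 2581 at T0 and 2942, 3980 and 4128 at T0.5. PSY1R, a leucine-rich repeat receptor kinase named for the PSY1 peptide, had a log2 rise of 1.12 (adjusted p = 0.000885). RALFL33, of the RALF peptides that FER-type receptors bind, read 2503, 2063 and 2229 at T0 and 3073, 3976 and 4293 at T0.5 (log2 0.73, adjusted p = 0.00238), whereas its relative RALFL31 was lower (log2 −0.47, adjusted p = 0.0279, 0.0531 without the block). Neither RALF gene was called without experiment 2. SGP1 and SGP2, small GTP-binding proteins, fell together within each experiment. SGP1 read 1433, 1131 and 867 at T0 and 734, 604 and 367 at T0.5 (log2 −1.04, adjusted p = 0.000209), and SGP2 had a log2 change of −1.07 (adjusted p = 0.000126). Without the block, which accounts for differences between experiments seen at both times, neither was called (0.0588 and 0.0861). The linker histone HIS1-3 read 1574, 1170.3 and 1335 at T0 and 857, 599 and 603 at T0.5 (log2 −0.997, adjusted p = 0.000138).

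A list of touch and early stress genes was followed because the roots were moved between media. Of 10 listed, 4 were tested and 1 was called, beside 10.0% called among all probe sets. CML38, a calmodulin-like calcium sensor, read 202, 187 and 145 at T0 and 237, 1071 and 1582 at T0.5. Its log2 change of 2.07 (SE 0.50, adjusted p = 0.0222) came from experiments 2 and 3, experiment 1 having moved little, and it was not called without the block (0.101), without experiment 2 or 3, or without any 1 of their 4 arrays. The same order of experiments held for CML37 (70.2, 156 and 253 at T0.5) and the zinc-finger factor ZAT10 (1435, 3380 and 3629 at T0.5), whose log2 changes of 1.11 (adjusted p = 0.293) and 0.66 (adjusted p = 0.249) were called without experiment 1, bringing the list to 3. WRKY53 had a log2 change of 0.25 (adjusted p = 0.775), which came from experiment 3 and turned negative without it (−0.505). Another calmodulin-like gene, CML43, fell from 1236, 987 and 1575 to 698, 494 and 1017 (log2 −0.82, adjusted p = 0.00194, 0.184 without the block). These 2 were the only calls among 8 calmodulin-like and calcium-dependent kinase genes. The 1 measured gene of 6 listed for sugar starvation, SEN5, read 4517, 4214 and 6193 at T0 and 5444, 8886 and 11945 at T0.5 (log2 0.76, adjusted p = 0.0148, 0.281 without the block). Among genes of cold, drought and defence response picked afterwards, SRC2 (log2 0.94, adjusted p = 0.0151), the dehydrin LTI30 (log2 0.71, adjusted p = 0.0372), the glutaredoxin GRX480 (log2 0.90, adjusted p = 0.0487) and the dehydrin COR47 (log2 0.24, adjusted p = 0.0382) were higher. SRC2 alone of these kept its call without the block, and none was called without experiment 2 or without 3. What transfer contributes to these values was not tested.

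Many of the largest changes belong to loci without a symbol in the gene table, for which no role is given here. AT5G10210 was dim at T0 with 18.8, 36.6 and 65.1 and read 644, 1119 and 1958 at T0.5, a 26.4-fold rise over the floor-limited T0 level (log2 4.73, SE 0.16, adjusted p = 5.26e-09). AT4G32950 read 158, 203 and 175 at T0 and 3766, 5531 and 2359 at T0.5, a 20.6-fold rise (log2 4.37, SE 0.25, adjusted p = 5.21e-07). AT2G48080 read 73.3, 110 and 146 at T0 and 1100, 1864 and 1707 at T0.5, a 14.4-fold rise (log2 3.85, SE 0.14, adjusted p = 9.09e-09). In all 3 the lowest T0.5 array was many times the highest T0 array. AT5G28610, AT3G07350, AT4G36010, AT1G61840 and AT1G49500 followed with log2 rises of 3.39, 3.38, 3.13, 2.94 and 2.82, and AT1G18290 and AT1G55390 with 2.54 and 2.51. AT5G28610, AT1G61840, AT1G18290 and AT1G55390 were dim at T0. AT5G28610 read 169, 950.4 and 1329 at T0.5, with log2 changes of 2.398, 3.36 and 4.42 in the 3 experiments, and AT3G07350 had log2 changes of 2.04, 4.17 and 3.94. Every one of the 16 largest rises with a named locus was called under all alternatives run, the fits without the block or without any array or experiment included. Of probe sets without a named locus, 252367_at was dim at T0 with 29.9, 6.9 and 35.3 and read 1271, 1571 and 2156 at T0.5. Its log2 rise of 5.62 was limited by the floor of 32, which stood in for 2 of the T0 signals. The other, 265475_at, rose by a log2 of 4.49.

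Among the 14 largest falls with a named locus only EXPA9 has a symbol. AT1G21550 read 498, 268 and 136 at T0 and 63.3, 97.9 and 39.0 at T0.5, where it was dim (log2 −2.08, SE 0.25, adjusted p = 0.000278). AT1G21590 read 520.3, 496 and 565 at T0 and 218, 148 and 145 at T0.5 (log2 −1.65, SE 0.14, adjusted p = 1.41e-05). AT1G64590 was the brightest of them, with 6518, 5990.2 and 4660.4 at T0 and 2858, 2685 and 1369 at T0.5 (log2 −1.37, SE 0.11, adjusted p = 1.21e-05). AT5G01720, AT4G17670 and AT1G66930 fell by a log2 of 1.41, 1.31 and 1.31. These 6 and EXPA9 kept their calls under all alternatives. AT2G43890 (log2 −1.42), AT4G18630 (−1.25) and AT3G01730 (−1.20) were not called without experiment 3. AT2G43890, dim at T0.5, was not called with a floor of 100 (adjusted p = 0.21) or without the T0 array of experiment 2 either, AT4G18630 not without experiment 2, and AT3G01730 not without experiment 2 or any 1 chl1-5 array of experiments 2 and 3. Without the block 4 more were not called: AT3G47480 (log2 −1.96, adjusted p = 0.0458 and 0.0969), AT1G57630 (−1.39, 0.00112 and 0.0821), AT1G53620 (−1.34, 0.0233 and 0.0511) and AT2G34610 (−1.28, 0.00427 and 0.0862). AT3G47480 and AT1G53620 also lost their calls in fits that left out 1 chl1-5 array (5 of 6 such fits each), AT1G57630 without experiment 2 and AT2G34610 without experiment 3. The 2 largest falls without a named locus were 250286_at (log2 −2.46) and 246821_at (log2 −2.23).

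The calls in the remaining gene families are given beside 10.0% called, 5.29% higher and 4.74% lower, among all probe sets. Of 28 UDP-glucosyltransferases 1 was higher and 4 lower (median −0.10). UGT72E1 and UGT72E2, which glucosylate lignin precursors, were both lower. UGT72E1 read 3372, 2526 and 1935 at T0 and 1916, 1514 and 1035 at T0.5 (log2 −0.82, SE 0.08, adjusted p = 4.96e-05), and UGT72E2 had a log2 change of −0.70 (adjusted p = 0.029). The flavonol glucosyltransferase UGT78D2 (log2 −0.50, adjusted p = 0.0164) was lower and UGT85A2 (log2 0.65, adjusted p = 0.0145) higher. Without the block UGT72E1 (0.139), UGT72E2 (0.189) and UGT85A2 (0.0736) were not called. UGT78D2, UGT72E2 and UGT85A2 were not called without experiment 2, nor without experiment 3. Single calls came from 12 cytochrome P450 genes (CYP71B37, log2 −0.48, adjusted p = 0.0196), 11 glutathione transferases (GSTU28, log2 −0.54, adjusted p = 0.00895) and 4 peroxidases (AT2G41480, log2 0.52, adjusted p = 0.0156), none of them kept without the block. None of 11 autophagy genes was called by limma, and 5 had an unadjusted p under 0.05, a level that 24.5% of all probe sets reached. The log2 changes of the 11 lay between −0.39 and −0.15 (median −0.20, beside −0.06 over all tested).

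Transcripts of the plastid genome were looked at after their values were seen. Of 48 tested, 7 were higher and 0 lower (5.29% and 4.74% among all probe sets), and 21 had an unadjusted p under 0.05 (24.5% among all). The median log2 change was 0.37, and 0.12 in wild type, where limma called 0 and 4 had an unadjusted p under 0.05. The difference between the genotypes' responses was called for none of the 48. The 7 were rps15, clpP, psaI, atpA, ndhD, psaJ and petA, genes of the plastid ribosome, protease, photosystem I, ATP synthase, NDH complex and cytochrome complex. For clpP the signals were 766, 937 and 470.1 at T0 and 1525, 1254 and 1935 at T0.5 (log2 1.15, SE 0.30, adjusted p = 0.0297). Its mean was 724 at T0 and 1571 at T0.5, beside 1283 and 1351 in wild type. At T0 the chl1-5 mean was also lower for atpA (185 beside 322 in wild type) and ndhD (127 beside 193). It was nearer to wild type for rps15 (154 beside 169) and psaJ (1245 beside 1303). The T0 array of experiment 3, the one with the actin ratio of 18.4, had the lowest plastid signals (median deviation −0.48 on the log2 scale). Without that array limma called 0 (12 at an unadjusted p under 0.05) and the median was 0.31, and without the block 1 was called. The part of RNA quality in this result was not tested.

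The 3 experiments differed in the size of the response. Over the 756 rises the median log2 change was 0.64 in experiment 1, 1.01 in experiment 2 and 0.96 in experiment 3. Over the 678 falls it was −0.43, −0.59 and −0.63. Experiment 1 gave the smallest of the 3 changes for 59.4% of the rises and 53.5% of the falls. The direction hardly varied: 750 of the rises were up in experiment 1 and all 756 in each of the others, and 677 or 678 of the falls were down in each. These probe sets were called from the same arrays, which favours a shared direction, so the counts are a description. Across all tested probe sets, which are not independent replicates, the changes of experiments 2 and 3 correlated with r = 0.638, those of 1 and 2 with 0.447 and those of 1 and 3 with 0.386. The wild type, grown on the same meshes, had medians of 0.73, 1.02 and 1.01 for the probe sets that rose in chl1-5, so its experiment 1 was the smallest as well.

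**Figure D4:**
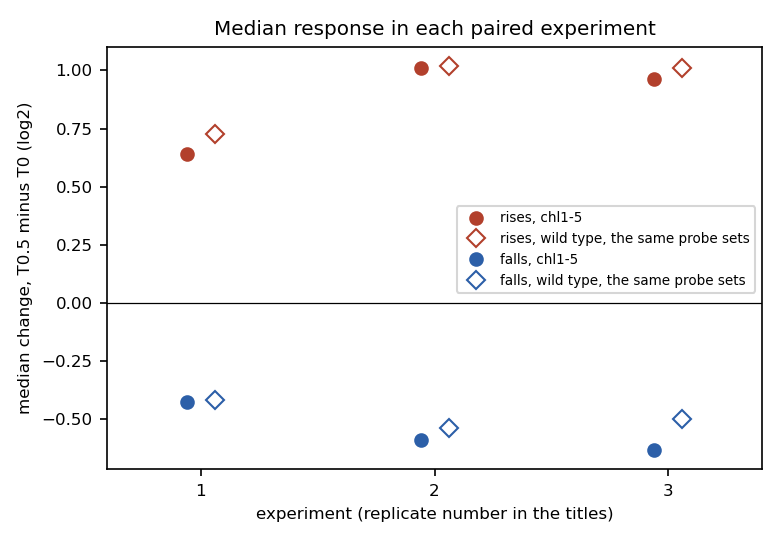
Points give the median log2 change from T0 to T0.5 in each experiment, over the 756 probe sets called higher and the 678 called lower in chl1-5, filled for chl1-5 and open for wild type. Experiment 1 lies nearest to 0 in both genotypes and both directions.

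Wild-type roots, tested in the same fit, had 1700 calls (11.9%), 824 higher (5.77%) and 876 lower (6.13%). Of the 756 rises in chl1-5, 620 were also called higher in wild type (82.0% of the chl1-5 rises, 75.2% of the wild-type rises), and of the 678 falls 413 were called lower there (60.9% and 47.1%). The other 401 calls of chl1-5 had the same sign in wild type in 381 cases, and the difference between genotypes was called for 1 of them. That was 245113_at, with a log2 change of −0.45 in chl1-5 and 0.39 in wild type, the only probe set called in opposite directions. The median wild-type log2 change was 0.92 over the chl1-5 rises and −0.50 over the falls, beside 0.90 and −0.56 in the mutant. Both sets were chosen by their chl1-5 values, so these medians are a description.

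The difference between the responses was called for 17 probe sets (0.119%), all with the smaller or lower change in chl1-5, and for 0 in the other direction by limma. At an unadjusted p under 0.05 there were 541 (3.79%), 252 of them (1.76%) with the higher change in chl1-5. The block gives each experiment a single shift for both times and genotypes. A shift that both genotypes share at only 1 time of an experiment therefore stays in the spread of this test. These counts are thus no measure of how alike the genotypes are. Of the 17, 14 were called in chl1-5 as well. The smallest p belonged to AT5G19970, which read 384, 322 and 290 at T0 and 700, 700 and 607 at T0.5 (log2 1.02 in chl1-5, 2.74 in wild type, difference −1.72, adjusted p = 0.000728). AT5G01740 rose by a log2 of 1.62 beside 3.68 (difference −2.05, adjusted p = 0.00568), GLYK by 3.24 beside 4.71 (difference −1.47, adjusted p = 0.00679), AT2G48080 by 3.85 beside 5.23 (difference −1.38, adjusted p = 0.0288) and AT3G16560 by 1.502 beside 2.502 (difference −0.9997, adjusted p = 0.0377). AT1G49000 read 118, 137 and 153 at T0 and 91.1, 86.7 and 165 at T0.5 in chl1-5, a log2 change of −0.31 (adjusted p = 0.369), where wild type had 1.52 (difference −1.83, adjusted p = 0.0298).

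**Figure D5:**
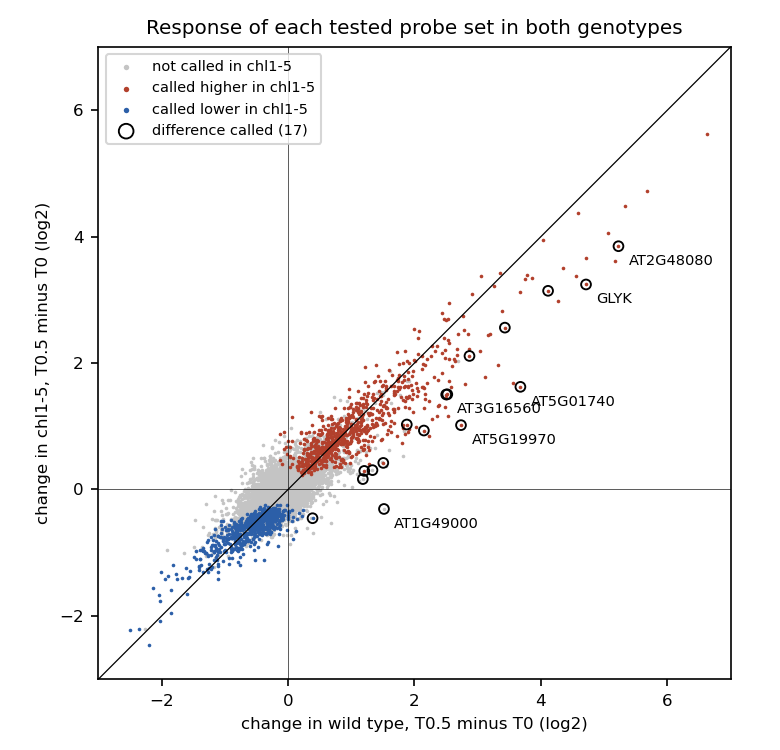
Each point is 1 tested probe set, with its log2 change from T0 to T0.5 in wild type (x axis) and in chl1-5 (y axis), and the line marks equal changes. The 17 ringed probe sets, whose difference was called, all lie below the line, and 14 of them were called in chl1-5.

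Other strong genes had smaller estimates in chl1-5 without a called difference. PGM changed by a log2 of 3.67 beside 4.72 in wild type (difference −1.05, 95% interval −1.47 to −0.64, adjusted p = 0.0749). HHO1 had 1.69 beside 3.56 (difference −1.87, adjusted p = 0.0644), PGD1 1.44 beside 1.89 (−0.44, adjusted p = 0.218) and PGD3 1.40 beside 2.23 (−0.83, adjusted p = 0.167). For other genes the interval of the difference spanned 0. EXLA1 had 2.69 in chl1-5 and 2.51 in wild type (difference 0.18, 95% interval −0.37 to 0.73), EXO 2.79 and 2.44 (0.35, −0.26 to 0.97), WRKY22 2.18 and 1.72 (0.46, −0.05 to 0.97), BAT1 2.104 and 2.25 (−0.15, −0.53 to 0.22) and EXPA9 −1.40 and −1.68 (0.28, −0.04 to 0.60). Over the 66 probe sets that rose at least 4-fold in chl1-5, the estimate was larger in wild type for 47 and larger in chl1-5 for 19, and the difference was called for 5. These 66 were chosen by their chl1-5 values, so the split is a description. Of the 6 named loci above whose difference was called, AT5G19970 (adjusted p = 0.00677) was called without the block and the other 5 were not (0.133 to 1). The count of 17 was 5 without the block, 3 without experiment 1 and 0 without experiment 2 or 3. Leaving out 1 array gave 3 to 15, with fewer than 12 for chl1-5 T0 of experiment 2 (9), chl1-5 T0.5 of 1 (6), 2 (9) and 3 (9), wild-type T0 of 2 (5) and 3 (10), and wild-type T0.5 of 1 (6) and 2 (3).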

How the data were processed

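The authors deposited 1 fluorescence intensity for each probe set and array, not on a log scale, made with MAS5 per the submitters' processing notes (its version is not given in the sources used here). Each array's mean after trimming 2% at either end lay between 499.4 and 500.6, so the arrays had been scaled before deposit. With 3 arrays per group, their number limits the precision. Of 22810 probe sets 64 controls were left out, and no array was a copy of another. Names came from the platform's annotation, updated through a TAIR10.1 gene table: 13513 probe sets had 1 gene (13436 of them matched the table), 503 had several and 8730 were not listed there, and both last kinds stay unnamed. Names of HHO, PGD, GLYK, NRG2, SEN5 and NPF loci come from the hand-written gene lists.

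Every signal under 32 was set to 32 before log2 was taken. limma 3.58.1 in R 4.3.3 (lmFit, contrasts.fit, eBayes with trend) fitted the 4 group means and the replicate number as a block over all 12 arrays, on the 14291 probe sets whose signal reached the array's 40th percentile on 3 or more arrays. Tests were two-sided with Benjamini-Hochberg adjustment over all tested probe sets, and every adjusted p is from this fit unless another is named. The block follows from the labels, where a replicate is a single experiment with both genotypes on one mesh. It was checked on the arrays' deviations from their group means: between groups, they correlated at 0.189 to 0.778 for the 18 pairs sharing a number and at −0.64 to −0.021 for the other 36. Among pairs sharing a number, the 3 of chl1-5 T0 with chl1-5 T0.5 had only 0.189 to 0.304. The 3 of both genotypes at T0.5 had 0.405 to 0.778. Deviations within a group sum to 0, so positive values for shared numbers bring negative ones for the other pairs. The fit was tested on simulated data.

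Genes were named by rule: the 16 largest rises and 14 largest falls with 1 named locus and no overlap between times, 2 and 2 without a locus, the 6 named loci with the smallest p for the difference of responses, all members of the gene lists, and the largest call in each direction of each symbol family. The brightest probe set stood for a locus. The comparison, the lists and the families were chosen with earlier results of these data known. Members of a family that only shared its letters (cyclophilins among CYP symbols, for instance) were removed after values were seen. Alternatives were no block, 2 other scalings, floors of 0.1 and 100, 2 other filters, eBayes without trend, the chl1-5 arrays alone, and leaving out each array or experiment.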

Additional observations from a re-analysis of the deposited data

Results flagged for a closer look

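For 17 probe sets the response of chl1-5 differed from that of wild type in a test of the difference itself (limma, adjusted p under 0.05), and in all 17 the chl1-5 change was the lower one. Differences below are chl1-5 minus wild type on the log2 scale. Among named loci they were −1.72 at AT5G19970, −2.05 at AT5G01740, −1.47 at AT1G80380 (GLYK), −1.38 at AT2G48080, −1.83 at AT1G49000, −0.9997 at AT3G16560 and −1.03 at AT1G73920. AT1G73920 changed by 0.31 in chl1-5 and 1.34 in wild type.

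The other 10 probe sets have no named locus. In 5 of them the response was large in both genotypes: 255230_at (1.505 in chl1-5 and 2.52 in wild type, difference −1.01), 249325_at (2.56 and 3.43, −0.87), 260623_at (3.14 and 4.11, −0.97), 245977_at (2.11 and 2.87, −0.76) and 250278_at (1.03 and 1.88, −0.85). The change of 248756_at was 0.93 beside 2.15 (−1.22). At 249710_at (0.29 beside 1.21, −0.91), 246216_at (0.16 beside 1.18, −1.02) and 258350_at (0.42 beside 1.51, −1.09) little of the rise was seen in chl1-5. 245113_at went in opposite directions (−0.45 beside 0.39, −0.84).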

How the results depend on the processing

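The chl1-5 response had 1434 calls. It had 561 with no replicate block, 787 with no filter on low signals and 623 from the chl1-5 arrays alone, and between 418 and 1761 when an array or an experiment was left out. The wild-type response (1700) had 812 with no replicate block, 1047 with no filter, and 618 to 1762 when an array or an experiment was left out. The difference of responses (17) had 5 with no replicate block, 26 after median scaling, 29 with a floor of 100, 5 with no filter, 10 without the trend, and 0 to 15 with an array or experiment left out. The chl1-5 count rose to 1761 without experiment 1 and to 1524 without its chl1-5 T0.5 array. Why the counts differed between fits was not tested. Median scaling moved the median of all tested from −0.06 to −0.03 and the share of rises among chl1-5 calls from 52.7% to 61.3%. Of the small groups, the calls with no replicate block came to 0 for sulfate, touch, P450, glutathione transferase, calmodulin-like and peroxidase genes, 1 each for WRKY, XTH and plastid genes, and 2 for UDP-glucosyltransferases. Estimates that changed sign belonged to genes that were not called. AT3G02360 was 0.0159 after median scaling and lay between −0.0572 and 0.0303 when an array or an experiment was left out, APS4 was 0.0179 and lay between −0.0654 and 0.0317, and cICDH was −0.0054 after quantile normalization. Leaving out an array or an experiment gave −0.505 to 0.748 for WRKY53, −0.0115 to 0.0673 for RCA, −0.165 to 0.0026 for EXLB1 and −0.222 to 0.119 for EXPA20. A planned count of promoter motifs was not run, since no promoter sequences were used here. Dim probe sets set a limit: where their signals lay under 32, the changes rest on the floor.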

Other observations

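Loci next to each other in the gene table were both called in a few places, a grouping made after the values were seen and not tested. Of 2368 pairs of adjacent loci with both members tested, both rose in 16, both fell in 7 and they moved in opposite directions in 3. Of the 250 pair members called higher, 32 had a neighbour called higher (12.8%), beside 5.28% called higher among all pair members. The strongest rising pair was EXLA3 and EXLA1 (log2 3.42 and 2.69 in chl1-5). A run of 3 adjacent loci, AT5G19100, AT5G19110 and AT5G19120, rose by log2 values of 0.76, 1.13 and 0.67, as did PEL1, AT4G27652 and AT4G27654 (0.36, 0.63 and 1.71). AT2G43880 and AT2G43890 both fell (log2 −1.04 and −1.42), and so did AT2G28710 and AT2G28720 (−0.89 and −0.89). Opposite changes were seen at AT1G72890 and AT1G72900 (log2 −1.10 and 0.98), AT1G22160 and AT1G22170 (−0.96 and 0.86), and AT1G71970 and AT1G71980 (−0.59 and 0.60).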
